A study of Homo sapiens with 6 samples.

Results

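The genes described here are 57 genes of DNA replication licensing and synthesis, chosen by name from textbook roles and found by symbol among 60616 gene identifiers. The choice was made with earlier results of these data known. All 57 were among the 16719 genes with enough counts to test. Cells of the 12Z line, an immortalized human endometriotic line used to model endometriosis and labelled wild type, received an extract of frankincense, a tree resin, for 12 h (70 ug/mL, diluted in DMSO; 3 libraries), or the DMSO vehicle alone (3 libraries). Both groups grew in DMEM/F12 with 10% charcoal-stripped serum, and RNA was sequenced from whole cultures of this single line. Whether the replicates are separate cultures is not stated, so each p-value reflects the spread among these libraries alone, and that spread may be technical.

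Before S phase, the origin recognition complex (ORC), CDC6 and CDT1 load the MCM2 to MCM7 helicase onto replication origins, a step called licensing that geminin (GMNN) blocks later in the cycle. The kinase CDC7 with DBF4, together with MCM10, CDC45 and the GINS complex, turns the loaded helicase into a moving fork, where DNA polymerases alpha, delta and epsilon work with the sliding clamp PCNA on nucleotides that ribonucleotide reductase and thymidylate synthase supply. Many of these genes are known E2F targets that are transcribed around the G1 to S transition, and cells that leave the cycle commonly lose them together.

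The promoters of 4 members are shown because these genes had the largest rise (CDC6), 2 of the largest falls (PCNA and RRM2), or the most E2F matches of any member with a window (MCM6). Each line holds the 250 bases before the RefSeq transcription start in GRCh38.p14, read 5′ to 3′ on the gene's strand. The windows are chr17:40287629-40287878 on the plus strand for CDC6, chr20:5126623-5126872 on the minus strand for PCNA, chr2:10122489-10122738 on the plus strand for RRM2 and chr2:135876444-135876693 on the minus strand for MCM6. Capitals mark the CCAAT box and the E2F letters TTTGGCGC, TTTCCCGC, TTTCGCGC and TTTGCCGC, on either strand, so that CCAAT also appears as ATTGG.
CDC6: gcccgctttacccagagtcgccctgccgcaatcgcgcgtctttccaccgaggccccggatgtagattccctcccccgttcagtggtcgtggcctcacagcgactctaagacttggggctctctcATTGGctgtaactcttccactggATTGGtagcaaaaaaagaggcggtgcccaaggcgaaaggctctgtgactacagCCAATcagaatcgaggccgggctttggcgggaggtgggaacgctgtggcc
PCNA: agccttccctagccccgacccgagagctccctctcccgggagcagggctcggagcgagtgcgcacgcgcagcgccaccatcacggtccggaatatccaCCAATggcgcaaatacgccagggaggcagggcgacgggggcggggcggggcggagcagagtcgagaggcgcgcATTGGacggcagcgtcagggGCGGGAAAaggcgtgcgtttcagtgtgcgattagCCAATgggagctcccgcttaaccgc
RRM2: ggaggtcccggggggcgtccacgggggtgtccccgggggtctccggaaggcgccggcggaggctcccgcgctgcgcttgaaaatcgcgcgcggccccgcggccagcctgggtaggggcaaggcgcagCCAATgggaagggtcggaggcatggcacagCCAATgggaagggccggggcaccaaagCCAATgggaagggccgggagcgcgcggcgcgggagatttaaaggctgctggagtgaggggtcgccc
MCM6: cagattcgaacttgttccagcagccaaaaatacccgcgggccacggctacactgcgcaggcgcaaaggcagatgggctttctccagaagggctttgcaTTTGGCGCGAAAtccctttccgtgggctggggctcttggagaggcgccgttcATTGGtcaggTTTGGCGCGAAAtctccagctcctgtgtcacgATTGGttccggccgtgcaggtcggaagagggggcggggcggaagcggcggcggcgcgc
CDC6 and RRM2, which moved in opposite directions, both held 3 CCAAT boxes and none of the E2F letters searched in this window. The CDC6 window does hold tttggcgg, which differs from TTTGGCGC only in its last letter and was not searched, so an E2F site there is not excluded. PCNA held 3 CCAAT boxes and 1 E2F match. MCM6 held 2 CCAAT boxes and 4 E2F matches, which are 2 pairs of overlapping matches on opposite strands.

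RefSeq windows were matched for 51 of the 57 members. Some of them, such as those of RRM2 (printed above), GINS3 and DNMT1, also lie inside the GENCODE 29 span of their gene. The printed CDC6 window does too, except for its first few bases. Those of PCNA and MCM6 lie almost or wholly outside. E2F letters stood in 15 of the 51 (29.4%), against 2.79% of all 27305 windows and 4.39% of the windows of 11521 tested genes. The members holding them were CDT1, ORC3, MCM3, MCM6, MCM7, GINS2, POLA1, POLA2, POLE, PCNA, RFC3, LIG1, TYMS, DTL and UHRF1. Among members with a window, 2 of 13 that rose (15.4%) and 9 of 26 that fell (34.6%) held the letters. The remaining holders, GINS2, POLA1, RFC3 and DTL, were called in neither direction. A CCAAT box stood in 29 of the 51 (56.9%), against 33.0% of all windows and 34.7% of those of tested genes. Of the members that rose 9 of 13 (69.2%) held one, and of those that fell 12 of 26 (46.2%). Among members called in neither direction, MCM8, GINS2, POLA1, PRIM1, RFC5, DTL, CLSPN and TIMELESS held one. GINS3, RFC2, RFC3 and SLBP, also uncalled, did not. The letters TTTGAA, the CHR element known from mitotic promoters, stood in 1 of 51 (1.96%), that of RRM1, against 13.6% of all windows and 8.4% of those of tested genes. Near forms of the E2F letters were not counted, so the E2F shares depend on the letters chosen. Examples are tttggcgg in the windows of the risers CDC6, CDC45 and POLA2 and the faller CDT1. Another is gcgggaag in that of the faller CDC7. These matches describe letters and no binding, and none of the differences in share between risers and fallers was tested.

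The libraries held 22615150 to 27615196 expected counts, and 3 counts in a library were worth 0.109 to 0.133 CPM (counts scaled to a common library total). The lowest count of any member in any library was 319. The leading principal component separated the groups with 74.2% of the variance, and the next, with 8%, set frankincense replicate 3 at -27.64 apart from replicates 1 and 2 at 7.99 and 19.95. Keratins were present (KRT8 averaged 683.6 TPM after frankincense and 771.5 TPM after vehicle), as was vimentin (VIM, 1969 and 2048 TPM), while CDH1 was near 0 in both groups (0.02 and 0.133 TPM). Stromal markers were also expressed, with a summed level of 1110 to 1360 TPM in frankincense libraries and 2730 to 2790 TPM in vehicle libraries, and all 6 of the 7 listed that were tested fell; whether this bears on the replication genes was not tested. Epithelial markers summed to 1380 to 1430 TPM after frankincense and 1600 to 1640 TPM after vehicle (2 of 6 tested rose and 4 fell), and of the mesenchymal markers CDH2 rose, VIM fell and FN1 did not pass. Mesothelial markers summed to 36.1 to 43.8 TPM after frankincense and 34.0 to 36.6 TPM after vehicle (1 of 3 tested fell). Endothelial markers summed to at most 0.26 TPM after frankincense and 0.27 TPM after vehicle, and the immune marker CD3E was at 0 in every library, while LYZ averaged 0.06 TPM after frankincense and 0.103 TPM after vehicle. PTPRC averaged 0.113 TPM after frankincense and 0.17 TPM after vehicle, CD68 averaged 46.2 TPM after frankincense and 29.2 TPM after vehicle, and neither passed the edgeR test. In RNA from whole cultures, fewer cells in S phase and less RNA per cell cannot be told apart.

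The replication genes did not move as one block. After frankincense, CDC6 rose 2.97-fold, and ORC6, TIPIN, POLA2, MCM10 and CDC45 rose less, while RRM2, PCNA, UHRF1, TK1 and POLE fell. Of the 57 members, 16 rose (28.1%) and 29 fell (50.9%) by edgeR's quasi-likelihood test at a Benjamini-Hochberg adjusted p under 0.05, against 31.9% of all tested genes called higher and 31.0% called lower. In all, 45 members (78.9%) were called, against 62.9% of tested genes. Counts by role below are on this count scale; beside each stands the count by limma on log2(TPM + 1), a scale on which all tested genes had a median of 0.20 and 44.2% of them were called higher and 14.9% lower. The 12 members that did not pass were MCM8, GINS2, GINS3, POLA1, PRIM1, RFC2, RFC3, RFC5, DTL, CLSPN, TIMELESS and SLBP.

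Most of these changes were small. The called members had a median absolute log2 change of 0.33, against 0.53 over all called genes. Only 8 members (14.0%) were both called and at least 1.5-fold different, against 28.3% of tested genes. They were CDC6, ORC6 and TIPIN, which rose, and RRM2, PCNA, UHRF1, TK1 and POLE, which fell. The median log2 change over the 57 was -0.14, with a range of -1.07 to 1.57, against -0.0016 over all tested genes. Normalized CPM (scaled by TMM factors) of the 3 frankincense and the 3 vehicle libraries did not overlap for 47 members (82.5%), 18 above and 29 below, against 67.5% of tested genes. Without frankincense replicate 3, 18 members were called higher and 28 lower, against 33.1% and 31.1% of all genes tested in that fit.

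**Figure D1:**
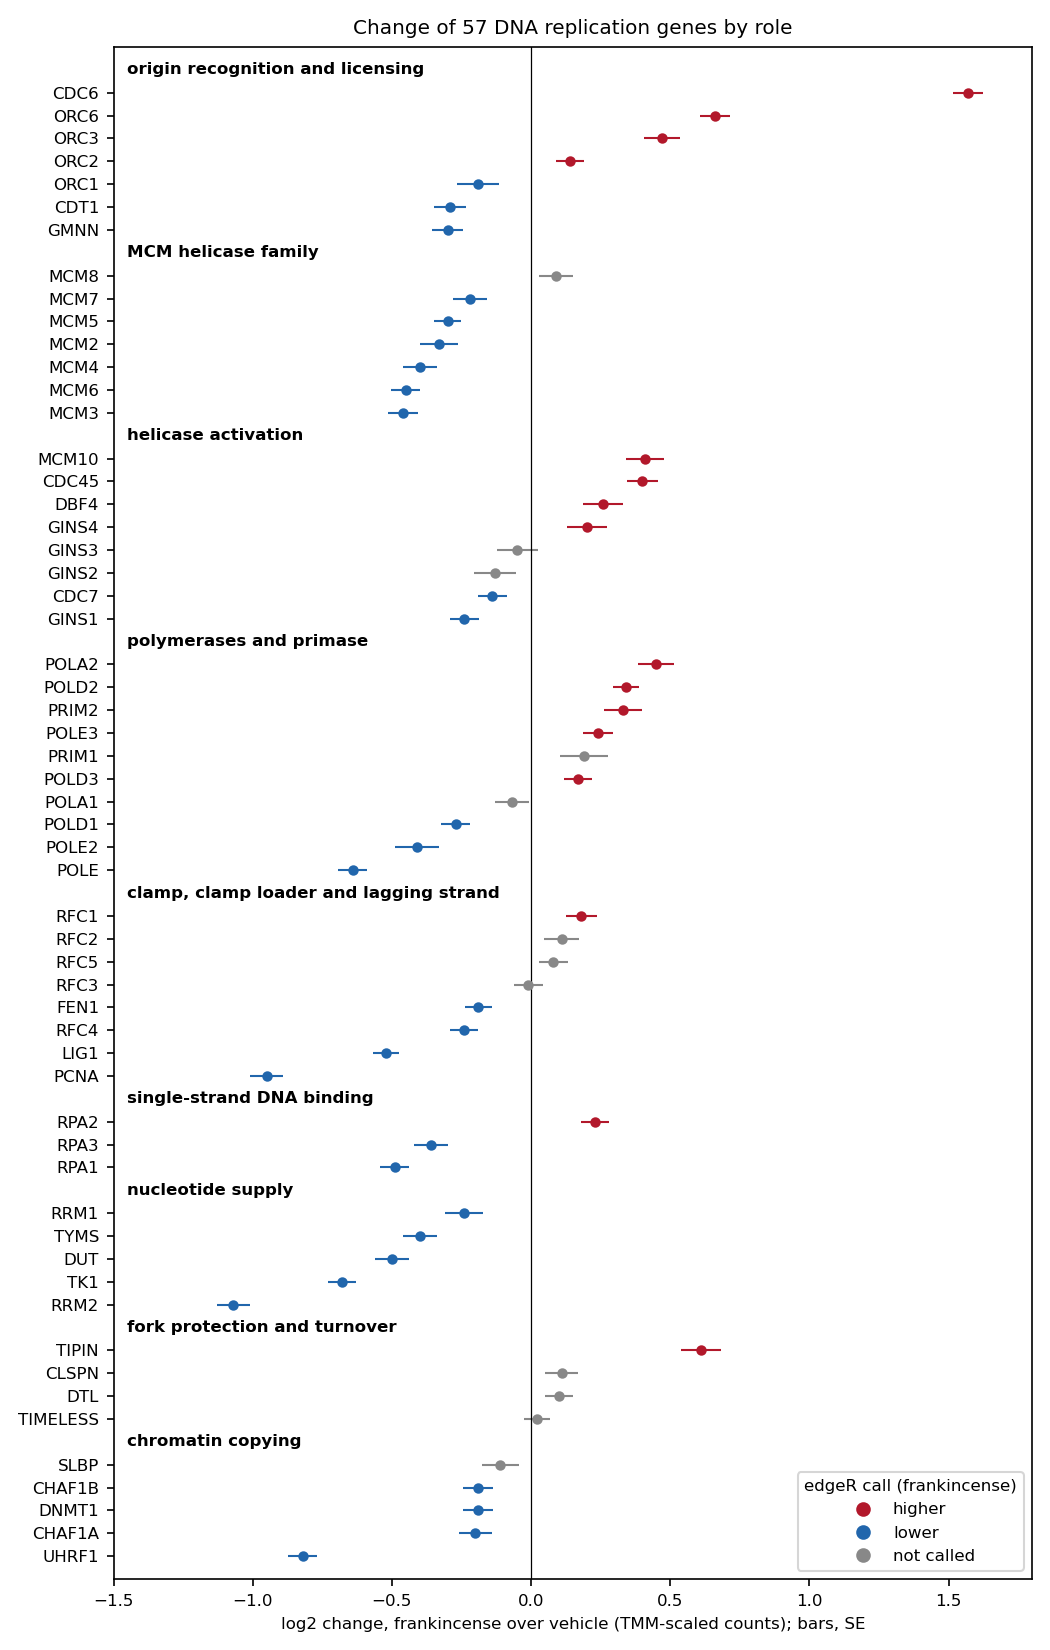
Log2 change of frankincense over vehicle for each of the 57 genes on the count scale, with SE bars, grouped by role and coloured by the edgeR call (red higher, blue lower, grey not called). Licensing, helicase activation and polymerase genes lie on both sides of 0, MCM2 to MCM7 lie between -0.46 and -0.22, and all 5 nucleotide supply genes lie between -1.07 and -0.24; on TPM the values of some genes left of 0 here lie at or above 0 (ORC1, CDC7, GINS1, GINS2, GINS3, POLA1, RFC3, FEN1, DNMT1, SLBP and CHAF1B).

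Licensing genes split, with 4 of 7 higher and 3 lower (median log2 change 0.14), although on TPM 4 were called higher and 0 lower. CDC6, the ATPase that brings CDT1 and MCM2 to MCM7 to ORC-bound origins (ENSG00000094804, chr17:40287633-40304657, plus strand, GRCh38), had 162.4, 177 and 176 normalized CPM in frankincense libraries, against 55.4, 58.1 and 59.8 in vehicle libraries. Every frankincense library was well above every vehicle library. The log2 change was 1.57 ± 0.055 (SE, edgeR adjusted p = 1.3e-11), higher than that of 98.4% of tested genes. ORC6, the smallest ORC subunit (chr16:46689643-46698394, plus strand), had 79.1, 80.0 and 74.7 normalized CPM after frankincense, against 51.1, 49.0 and 47.8 after vehicle, and rose by 0.66 ± 0.054 on the log2 scale (edgeR adjusted p = 8.2e-08). ORC3 and ORC2, other subunits of the complex, rose by 0.47 ± 0.064 and 0.14 ± 0.052 (SE, edgeR adjusted p = 1.7e-05 and 0.033), but the ORC2 call was lost with DESeq2 and stayed only when frankincense replicate 3 was the library left out.

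The partner and the inhibitor of licensing moved the other way from CDC6. CDT1, which delivers the MCM helicase, had 32.0, 33.6 and 32.8 normalized CPM in frankincense libraries and 40.1, 40.9 and 39.1 in vehicle libraries, and its groups did not overlap (log2 change -0.29 ± 0.058, SE, edgeR adjusted p = 0.00052). GMNN, which encodes the CDT1 inhibitor geminin, had 41.5, 41.6 and 39.3 normalized CPM after frankincense, against 48.1, 50.9 and 51.7 after vehicle (log2 change -0.30 ± 0.057, SE, edgeR adjusted p = 0.00035). CDT1 and GMNN thus fell by nearly the same amount, and on TPM their changes relative to all tested genes were -0.20 and -0.26. ORC1, the subunit whose protein is known to cycle in human cells, had 19.4, 22.6 and 22.2 normalized CPM after frankincense and 23.8, 25.4 and 24.1 after vehicle. Its groups lay close together (log2 change -0.19 ± 0.075, SE, edgeR adjusted p = 0.035), and the call was lost without frankincense replicate 1 or without any 1 of the 3 vehicle libraries. On the length-corrected TPM scale, which allows levels of different genes to be set side by side, CDC6 averaged 110.1 ± 12.5 TPM after frankincense and 31.71 ± 1.92 TPM after vehicle, while CDT1 averaged 20.35 ± 2.39 and 20.28 ± 1.03 TPM (SD, n = 3 each).

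All 6 subunits of the MCM2 to MCM7 helicase, the motor that unwinds DNA at the fork, were lower on counts, with log2 changes of -0.46 to -0.22, while on TPM 1 of the 6 was called lower and 0 higher. MCM3 had 195, 194 and 184 normalized CPM in frankincense libraries, against 254, 262 and 272 in vehicle libraries (log2 change -0.46 ± 0.055, SE, edgeR adjusted p = 4.2e-06). MCM6, whose promoter held the E2F pairs shown above, had 87.2, 88.2 and 95.7 normalized CPM after frankincense and 121, 123 and 126 after vehicle (log2 change -0.45 ± 0.052, SE, edgeR adjusted p = 2.9e-06). In both genes the groups were well apart. MCM2 had 120.3, 131 and 147 normalized CPM in frankincense libraries and 165, 162.02 and 174 in vehicle libraries (log2 change -0.33 ± 0.068, SE, edgeR adjusted p = 0.00076), and frankincense replicate 3 was the highest of its group. MCM7 had 238, 252 and 271 normalized CPM after frankincense, against 287, 299.7 and 299 after vehicle (log2 change -0.22 ± 0.060, SE, edgeR adjusted p = 0.0056), with the same library highest among the treated ones. MCM4 and MCM5 fell by 0.40 ± 0.061 and 0.30 ± 0.047 on the log2 scale. Their edgeR adjusted p was 4.7e-05 for MCM4 and 5.4e-05 for MCM5. MCM8, a relative that acts in recombination and is no subunit of this helicase, had a log2 change of 0.09 ± 0.061 and did not pass (edgeR adjusted p = 0.2).

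Factors that activate the loaded helicase were not lower as a group, with 4 of 8 higher and 2 lower (median log2 change 0.08), and on TPM 4 higher and 0 lower. MCM10, which is needed for the activated helicase to start unwinding, had 31.3, 33.4 and 30.8 normalized CPM in frankincense libraries and 23.0, 23.1 and 25.7 in vehicle libraries (log2 change 0.41 ± 0.068, SE, edgeR adjusted p = 0.0001). CDC45, which joins the MCM ring with GINS to form the active helicase, had 56.9, 57.6 and 53.3 normalized CPM after frankincense, against 41.8, 43.4 and 41.5 after vehicle (log2 change 0.40 ± 0.056, SE, edgeR adjusted p = 1.9e-05). Both genes were higher in every frankincense library, opposite to the MCM subunits they bind. The kinase subunit CDC7 had 65.4, 68.1 and 62.9 normalized CPM after frankincense and 72.4, 70.6 and 73.0 after vehicle, a log2 change of -0.14 ± 0.052 (SE, edgeR adjusted p = 0.033) that stayed called only when frankincense replicate 2 was the library left out. DBF4, the subunit that activates CDC7, rose by 0.26 ± 0.072 on the log2 scale (edgeR adjusted p = 0.0063).

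The 4 GINS subunits form 1 complex and did not share a direction. GINS1 had 50.6, 52.0 and 53.4 normalized CPM in frankincense libraries, against 60.6, 60.4 and 62.9 in vehicle libraries (log2 change -0.24 ± 0.053, SE, edgeR adjusted p = 0.0012). GINS4 rose by 0.20 ± 0.072 on the log2 scale (edgeR adjusted p = 0.025), but its groups overlapped, at 28.7, 32.5 and 33.8 normalized CPM after frankincense and 27.5, 26.3 and 28.8 after vehicle, and the call was lost without frankincense replicate 2 or without vehicle replicate 1 or 2. An antisense gene, AC009630.2, shares 1159 exonic bases with GINS4 and averaged 13.3 TPM after frankincense and 9.64 TPM after vehicle; nothing states that the libraries keep strand, and reads of such pairs cannot be told apart. GINS2 and GINS3 had log2 changes of -0.13 ± 0.075 and -0.05 ± 0.074 and did not pass (SE, edgeR adjusted p = 0.14 and 0.61).

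**Figure D2:**
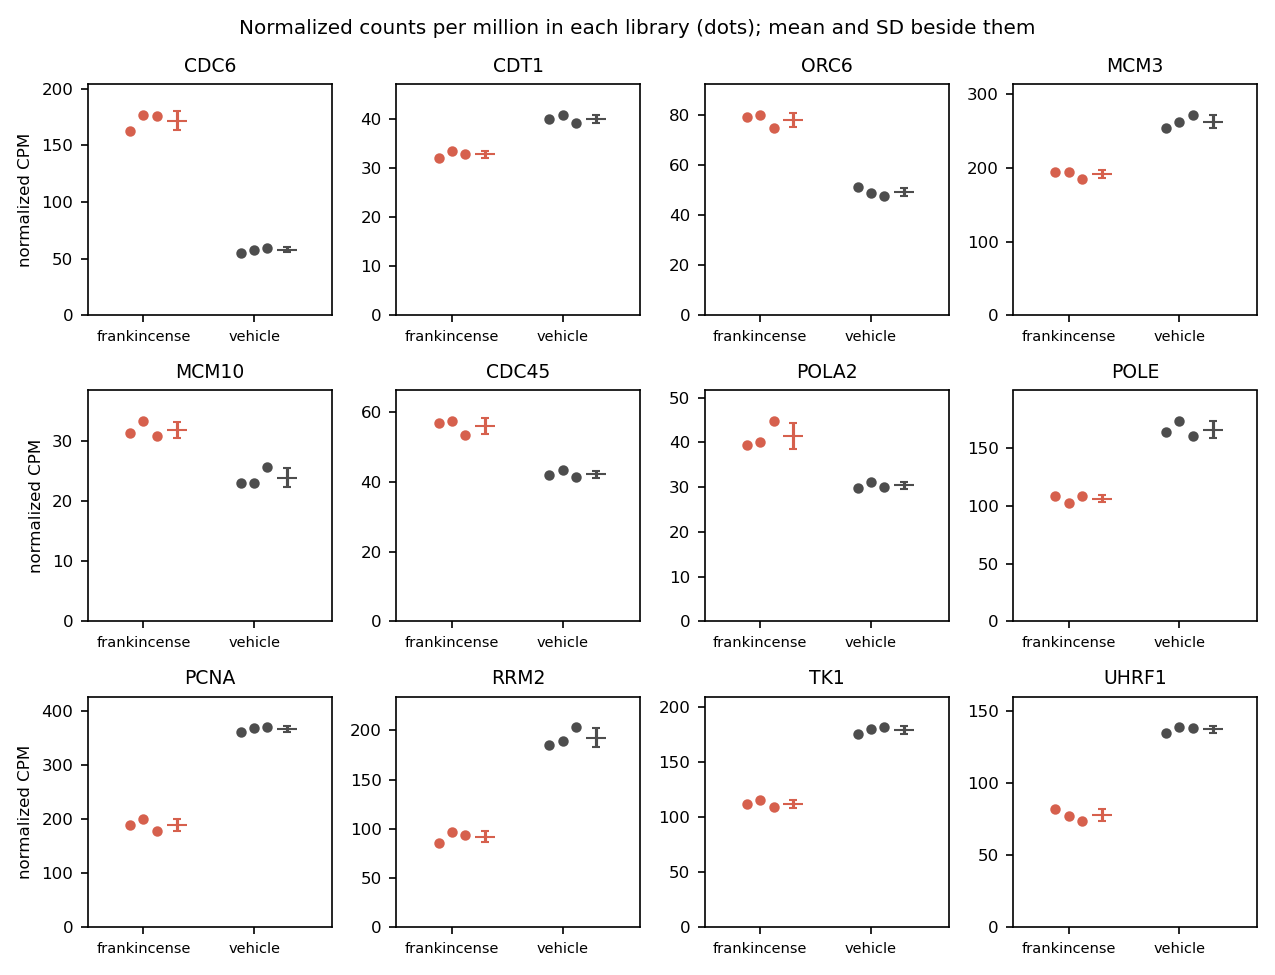
Normalized CPM of 12 replication genes in each library (dots, frankincense left in red, vehicle right in grey), with the group mean and SD beside them and each axis starting at 0. CDC6, ORC6, MCM10, CDC45 and POLA2 lie higher in every frankincense library, and CDT1, MCM3, POLE, PCNA, RRM2, TK1 and UHRF1 lie lower.

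Polymerase and primase genes also split, with 5 of 10 higher and 3 lower (median log2 change 0.18), and on TPM 6 higher and 1 lower. For polymerase epsilon, the leading-strand enzyme, the catalytic subunit POLE had 108, 102 and 108 normalized CPM in frankincense libraries and 164.04, 174 and 160.1 in vehicle libraries (log2 change -0.64 ± 0.052, SE, edgeR adjusted p = 7.8e-08). Its second subunit POLE2 had 14.0, 15.5 and 13.1 normalized CPM after frankincense, against 18.6, 19.1 and 18.8 after vehicle (log2 change -0.41 ± 0.080, SE, edgeR adjusted p = 0.00046). By normalized CPM both were lower in every frankincense library, whereas the small histone-fold subunit POLE3 rose by 0.24 ± 0.054 on the log2 scale (edgeR adjusted p = 0.0011). For polymerase delta, the lagging-strand enzyme, the catalytic subunit POLD1 fell by 0.27 ± 0.052 on the log2 scale (edgeR adjusted p = 0.0004). POLD2, its second subunit, had 137, 142 and 142 normalized CPM after frankincense and 110.1, 112 and 111 after vehicle (log2 change 0.34 ± 0.047, SE, edgeR adjusted p = 1.8e-05), and POLD3 rose by 0.17 ± 0.050 (edgeR adjusted p = 0.0089), a call lost without vehicle replicate 1. For both enzymes, then, the catalytic subunit was lower on counts and at least 1 accessory subunit was higher. On TPM, POLD1 and POLE2 were not called (log2 change -0.07 and -0.13, limma adjusted p = 0.33 and 0.26), and the groups of each overlapped. Among subunits outside the 57, POLD4 fell by 0.27 ± 0.082 (SE, edgeR adjusted p = 0.011), a call lost without vehicle replicate 1. POLE4 had a log2 change of -0.13 ± 0.067 and did not pass (SE, edgeR adjusted p = 0.11). Both were added after their values were seen.

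Polymerase alpha and primase, which lay down the RNA-DNA primers, had no subunit that fell. POLA2 had 39.4, 40.2 and 44.9 normalized CPM in frankincense libraries, against 29.8, 31.2 and 30.1 in vehicle libraries (log2 change 0.45 ± 0.065, SE, edgeR adjusted p = 3.1e-05). The large primase subunit PRIM2 rose by 0.33 ± 0.069 on the log2 scale (edgeR adjusted p = 0.00067). The catalytic subunits did not pass: the log2 change was -0.07 ± 0.061 for POLA1 and 0.19 ± 0.087 for PRIM1 (SE, edgeR adjusted p = 0.32 and 0.069).

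Among clamp, clamp loader and lagging-strand genes, 4 of 8 fell and 1 rose on counts (median log2 change -0.10), while on TPM 2 were called lower and 4 higher. PCNA, the ring that holds polymerases on DNA (chr20:5114953-5126626, minus strand), had 189, 201 and 178 normalized CPM in frankincense libraries, against 360.2, 368 and 371 in vehicle libraries. No library of either group came near the other, and the log2 change was -0.95 ± 0.059 (SE, edgeR adjusted p = 4.3e-09), 1.94-fold lower. PCNA had the highest TPM of the 57 in both groups, at 240.2 ± 8.17 TPM after frankincense and 393.8 ± 8.93 TPM after vehicle (SD, n = 3 each). After frankincense, TYMS, at 233.2 ± 13.3 TPM, did not differ from it beyond their spread. LIG1, the ligase that seals Okazaki fragments, had 77.6, 75.7 and 76.4 normalized CPM after frankincense and 111, 109 and 108 after vehicle (log2 change -0.52 ± 0.047, SE, edgeR adjusted p = 2.5e-07). FEN1, the flap nuclease that trims those fragments, fell by 0.19 ± 0.049 on the log2 scale (edgeR adjusted p = 0.0037).

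The genes of the RFC complex, which loads PCNA onto DNA, had 1 rise, 1 fall and 3 that did not pass. RFC1, its large subunit, had 129.6, 138 and 141 normalized CPM in frankincense libraries and 122, 113 and 127 in vehicle libraries, close but not overlapping (log2 change 0.18 ± 0.056, SE, edgeR adjusted p = 0.013), and the call was lost without vehicle replicate 2. RFC4 fell by 0.24 ± 0.051 on the log2 scale (edgeR adjusted p = 0.001). RFC2, RFC3 and RFC5 did not pass, with log2 changes of 0.11 ± 0.062, -0.01 ± 0.053 and 0.08 ± 0.053 (SE, edgeR adjusted p = 0.14, 0.94 and 0.23). The subunits of replication protein A, which coats single-stranded DNA, also divided, with 1 higher and 2 lower on counts and 1 of each on TPM. RPA1 had 146, 153 and 149.8 normalized CPM after frankincense, against 209, 205 and 217 after vehicle (log2 change -0.49 ± 0.053, SE, edgeR adjusted p = 1.4e-06). RPA3 had 51.2, 54.3 and 47.0 normalized CPM after frankincense and 64.6, 68.0 and 62.6 after vehicle (log2 change -0.36 ± 0.062, SE, edgeR adjusted p = 0.00016). RPA2 was higher in every frankincense library, at 79.8, 80.0 and 80.2 normalized CPM, against 67.7, 66.5 and 70.0 in vehicle libraries (log2 change 0.23 ± 0.049, SE, edgeR adjusted p = 0.00085).

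All 5 nucleotide supply genes fell on counts (median log2 change -0.50), and on TPM 3 were called lower and 0 higher. RRM2, the small subunit of ribonucleotide reductase and the one known to be limited to cycling cells (chr2:10120698-10131419, plus strand), had 85.7, 96.4 and 93.6 normalized CPM in frankincense libraries, against 185, 189 and 204 in vehicle libraries. Its log2 change of -1.07 ± 0.060 (SE, edgeR adjusted p = 1.5e-09), 2.10-fold lower, was the lowest of the 57. RRM1, the large subunit, had 126, 147 and 153 normalized CPM after frankincense and 163.6, 166 and 175 after vehicle, with groups apart but closer (log2 change -0.24 ± 0.068, SE, edgeR adjusted p = 0.0065). TK1, the thymidine salvage kinase, had 112, 115 and 109 normalized CPM after frankincense, against 176, 181 and 182 after vehicle (log2 change -0.68 ± 0.050, SE, edgeR adjusted p = 2.9e-08). TYMS, which makes thymidylate, had 170.2, 192 and 166 normalized CPM in frankincense libraries and 233, 232 and 234 in vehicle libraries (log2 change -0.40 ± 0.061, SE, edgeR adjusted p = 4.3e-05). ENOSF1 lies on the opposite strand and shares 967 exonic bases with TYMS, at 42.0 TPM after frankincense and 32.0 TPM after vehicle, so reads there cannot be told apart. Other members share exonic bases too. POLA2 shares 2012 with AP000944.2 (1.37 TPM after frankincense, 1.4 after vehicle), and MCM2 shares 1113 with AC023593.1 (2.37 and 3.53 TPM). RRM2 shares 1077 with AC007240.1, which has no TPM value here. DUT, which keeps uracil out of DNA, fell by 0.50 ± 0.061 on the log2 scale (edgeR adjusted p = 5.4e-06).

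**Figure D3:**
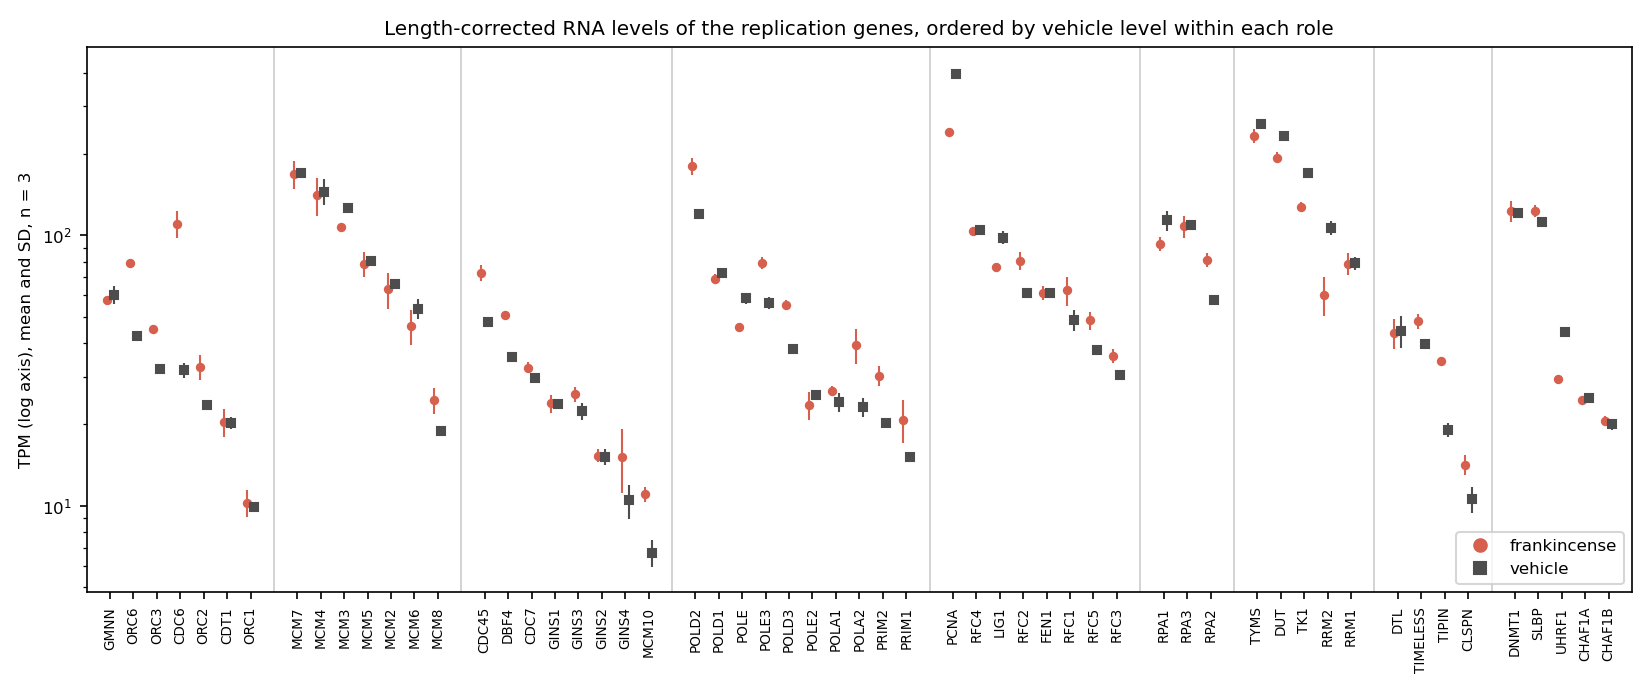
Mean TPM of each replication gene (log axis, bars are SD, n = 3 libraries each; frankincense red circles on the left, vehicle grey squares on the right), ordered within each role by vehicle level. PCNA has the highest level in both groups, at 240.2 TPM after frankincense and 393.8 TPM after vehicle, and vehicle levels run down to 6.703 TPM for MCM10.

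Of 4 genes for fork protection and turnover, 1 rose and 3 did not pass on counts, while on TPM 3 were called higher. TIPIN, the partner of TIMELESS in the fork protection complex, had 23.1, 23.8 and 22.2 normalized CPM in frankincense libraries, against 14.8, 15.6 and 14.8 in vehicle libraries (log2 change 0.61 ± 0.071, SE, edgeR adjusted p = 3e-06). TIMELESS itself had a log2 change of 0.02 ± 0.047 (edgeR adjusted p = 0.71), so on counts only 1 of the 2 partners was called. On TPM both were called higher, TIPIN by 0.82 and TIMELESS by 0.27 (limma adjusted p = 1.3e-05 and 0.0067). CLSPN, which encodes the checkpoint mediator claspin, and DTL, the adaptor that directs CDT1 to a ubiquitin ligase, had log2 changes of 0.11 ± 0.059 and 0.10 ± 0.051 (SE, edgeR adjusted p = 0.13 and 0.092).

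Among genes that copy chromatin behind the fork, 4 of 5 fell on counts (median log2 change -0.19), while on TPM 1 was called lower and 0 higher. UHRF1, which recognises hemimethylated DNA and recruits DNMT1, had 82.0, 77.3 and 73.8 normalized CPM in frankincense libraries and 134, 139 and 138 in vehicle libraries (log2 change -0.82 ± 0.052, SE, edgeR adjusted p = 6.1e-09). DNMT1, the maintenance methyltransferase, fell by only 0.19 ± 0.053 on the log2 scale (edgeR adjusted p = 0.0057). CHAF1A, the large subunit of the histone chaperone CAF-1, had 48.8, 50.6 and 46.6 normalized CPM after frankincense, against 53.1, 58.1 and 56.5 after vehicle (log2 change -0.20 ± 0.058, SE, edgeR adjusted p = 0.0079), and its partner CHAF1B fell by 0.19 ± 0.055 (edgeR adjusted p = 0.0073). SLBP, which binds histone mRNA, had a log2 change of -0.11 ± 0.066 and did not pass (edgeR adjusted p = 0.15). UHRF1 stood apart from the other 4 in the size of its change, a difference that was not tested.

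The scale decides how many of the small changes appear as falls. On log2(TPM + 1), where all tested genes had a median of 0.20, limma called 23 members higher and 9 lower, against 44.2% and 14.9% of all tested genes, and the median of the 57 was 0.04, or -0.15 relative to all tested genes. The lower calls ORC1, CDC7, FEN1, DNMT1 and CHAF1B had TPM changes slightly above 0 in that fit, at 0.05, 0.12, 0.01, 0.03 and 0.04. Of MCM2 to MCM7, 6 were called lower on counts and 1 on TPM, where their median was -0.06, or -0.26 relative to all tested genes. Relative to the all-gene median of each scale, 0 of the 45 called members changed direction. Genes of the mitochondrial genome took 9.5% to 11.01% of the counts in frankincense libraries and 14.01% to 14.71% in vehicle libraries; when they were left out of the TPM total the all-gene median was 0.05, and 15 members were called higher and 20 lower, against 30.9% and 22.7% of all genes in that fit.

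**Figure D4:**
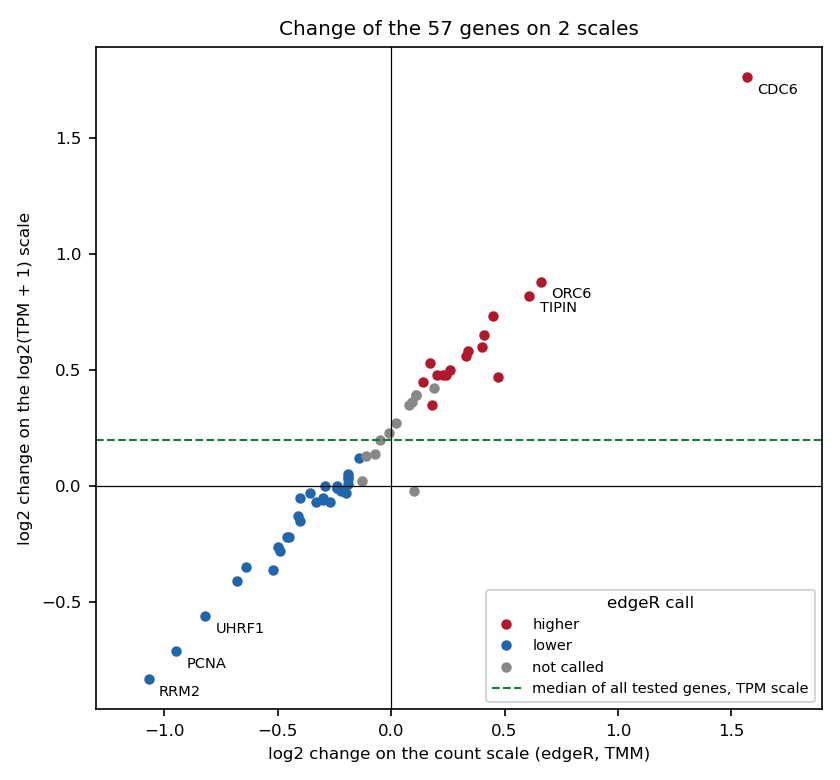
Log2 change of each of the 57 genes on the count scale (horizontal axis) and on the log2(TPM + 1) scale (vertical axis), coloured by the edgeR call, with the all-gene median on the TPM scale, 0.20, as a dashed line. Genes called higher lie above that line and genes called lower lie below it.

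RSEM also gives each gene a length averaged over its transcripts by their abundance. Transcript length differed by more than 5% with no overlap between groups for 2 of 57 members that were longer, against 3.85% of tested genes. It did so for 1 of 57 that was shorter, against 6.77%. Neither share was above that of all tested genes. ORC3 averaged 2315 ± 26.2 bases after frankincense and 2013 ± 49.4 bases after vehicle (SD, n = 3 each), 15.0% longer. DTL averaged 3939 ± 443 bases after frankincense and 3086 ± 211 bases after vehicle (SD, n = 3 each), 27.6% longer. POLD3 averaged 2507 ± 34.6 bases after frankincense and 2735 ± 30.9 bases after vehicle (SD, n = 3 each), a change of -8.32%. The other 54 members did not meet this rule.

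Beyond the 57, the list of 38 other replication genes was close to balanced, with 10 higher and 15 lower and a median log2 change of 0.00 on counts, and 20 higher and 5 lower on TPM. Another ORC subunit, ORC5, had 35.2, 40.5 and 40.5 normalized CPM in frankincense libraries and 17.5, 18.0 and 17.6 in vehicle libraries, a log2 change of 1.13 ± 0.072 (SE, edgeR adjusted p = 5.9e-09), and ORC4 rose by 0.39. ORC4 was added after its value was seen. With these, ORC2 to ORC6 were called higher and ORC1 lower, but the calls of ORC1 and ORC2 depend on single libraries as described above, and ORC1 had a TPM change of 0.05. RNASEH2B, a subunit of RNase H2, and TOP3A, a topoisomerase, rose by 0.75 and 0.45 on the log2 scale. SAMHD1, which degrades deoxynucleotides, had a log2 change of -1.07, the same size as RRM2 on the synthesis side. ASF1B, a histone chaperone that hands histones to CAF-1, and HELLS, a chromatin remodeller, had log2 changes of -0.87 and -0.74.

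In the list of G1 to S control, 13 of 26 genes fell and 7 rose on counts (median log2 change -0.17), and 10 were called in each direction on TPM. E2F1, an activator of many replication genes, had 75.0, 72.3 and 69.0 normalized CPM after frankincense and 68.9, 67.5 and 70.4 after vehicle, with overlapping groups (log2 change 0.06 ± 0.053, SE, edgeR adjusted p = 0.3). E2F7 and E2F8, repressor E2Fs with overlapping roles, went opposite ways, with log2 changes of 1.01 ± 0.060 and -1.18 ± 0.087 (SE, edgeR adjusted p = 2.8e-09 and 2.6e-08), and E2F5 rose by 0.50. The cyclin gene CCNE2 had a log2 change of -0.88, and CCNE1 one of -0.47 ± 0.19 (edgeR adjusted p = 0.046), a call lost without frankincense replicate 1 or 2 or without vehicle replicate 2 or 3. SKP2, which marks CDK inhibitors for destruction, had a log2 change of -0.96, the CDK inhibitor gene CDKN2C one of -1.97, and CDKN1A, which encodes the CDK inhibitor p21, one of 0.82 ± 0.062 (edgeR adjusted p = 3.4e-08).

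Checkpoint genes were mixed, with 6 of 11 higher and 4 lower (median log2 change 0.24), and 7 higher and 1 lower on TPM. The kinase gene ATR, HUS1 of the 9-1-1 clamp and the kinase gene TLK2 rose by 0.51, 0.58 and 0.47 on the log2 scale. RAD9A, a second 9-1-1 subunit, ETAA1, an activator of ATR, and WEE1, the kinase that restrains CDKs, had log2 changes of -0.29, -0.54 and -0.43. The G2 and mitosis list was different in make-up, with 21 of 22 genes lower and 0 higher by edgeR (median log2 change -0.72), and 19 lower and 1 higher on TPM. The other one, CDC20, had a log2 change of 0.10 and did not pass. MKI67, the proliferation marker, had 141, 151 and 166 normalized CPM in frankincense libraries and 353, 336 and 354 in vehicle libraries (log2 change -1.19 ± 0.065, SE, edgeR adjusted p = 1.2e-09). KIF20A, a kinesin of cytokinesis, and CENPF, a kinetochore protein, had log2 changes of -2.05 and -1.08. Only RRM2 among the 57 replication genes had a log2 change beyond -1, and the difference between the lists was not tested.

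**Figure D5:**
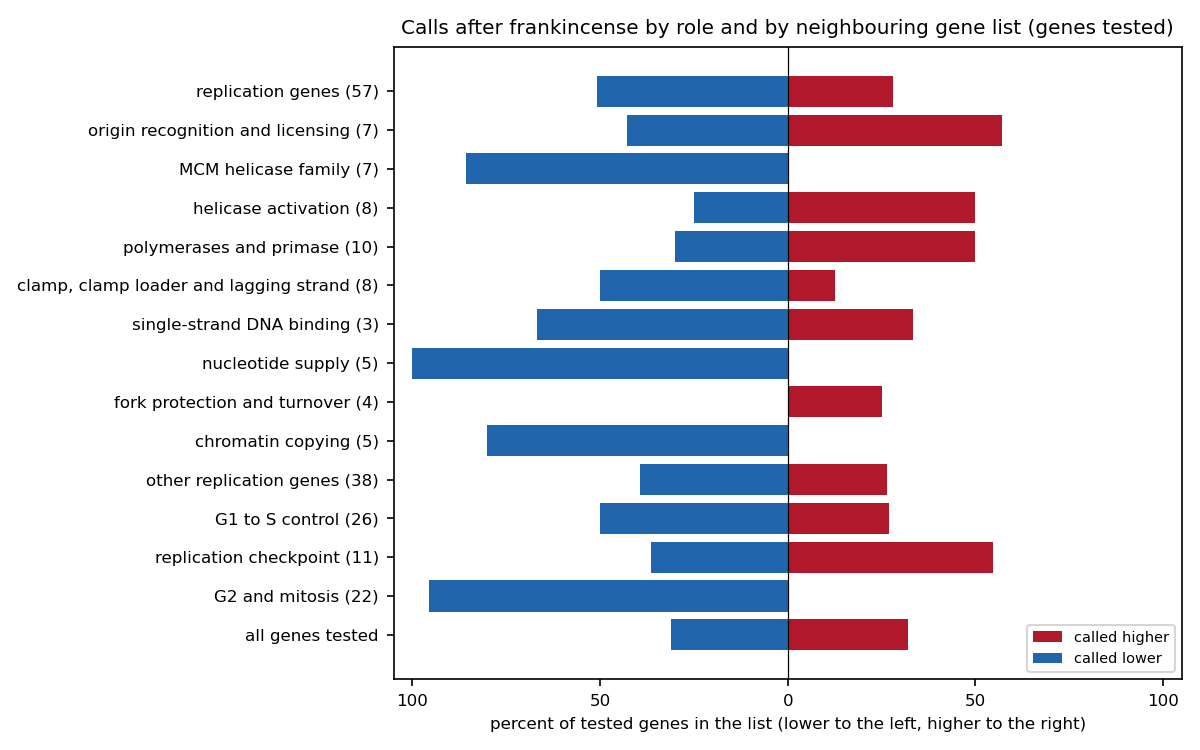
Percent of tested genes called higher (red, right) and lower (blue, left) after frankincense for the 57 replication genes, each role among them, 4 neighbouring lists and all tested genes, with the number tested in brackets. The 57 genes stand at 28.1% higher and 50.9% lower, all tested genes at 31.9% and 31.0%, and the G2 and mitosis list has 21 of 22 genes lower.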

How the data were processed

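RNA was sequenced in 6 libraries (TruSeq RNA kit, 1.5 ug of total RNA), 3 with frankincense extract and 3 with vehicle, grouped by the treatment given in the labels. Per the submitters' processing notes the authors used STAR, RSEM 1.3.1 and GRCh38; for STAR's version and the annotation the sources used here give nothing. The deposited tables hold, per the file headers, RSEM expected counts, which divide reads that fit several genes, TPM, and an abundance-weighted gene length. Of 60616 identifiers, 60419 had a symbol in a gene name table and 178 more in GENCODE 29, whose positions are printed.

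Expected counts were rounded and tested with edgeR 4.0.16 (R 4.3.3; filterByExpr, TMM, robust glmQLFit with the legacy fit, glmQLFTest, two-sided), and p-values were adjusted by Benjamini-Hochberg across all 16719 genes kept; adjusted p under 0.05 was a call, and the SE is the log2 change over the square root of F. CPM values are TMM-scaled. The biological coefficient of variation was 6.42%. The limit of 3 counts covers counting error only. Alternatives used DESeq2 1.42.0 and limma 3.58.1 (trend, log2(TPM + 1) or + 0.1), other scalings and filters, and each library left out in turn. Exact permutation of 3 against 3 libraries cannot go below 0.1. Chi-square per degree of freedom was 3.65 to 4.18 between vehicle libraries and 3.93 to 12.86 between frankincense libraries, so none was counted as a duplicate. The test was checked on simulated data in which 200 genes changed. Of genes changed by 0.3, 0.5 and 1 on the log2 scale, 29.9%, 73.1% and 89.2% were called, with 5 false calls. The changed genes were drawn from all genes kept, including genes with far lower counts than the members. Far more genes were called in the real data, which eases the adjusted threshold. For both reasons these shares do not carry over directly to the members. Small changes can be missed, and a member that did not pass is not shown to be unchanged.

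RefSeq promoters (GRCh38.p14) were read for 250 bases before the first listed start of each gene, without the 50 bases after it; motifs were searched on both strands. Members and lists were chosen with earlier results of these data known. All 57 members are named; library values are given for 15 members chosen by name and, in each role, for up to 2 called members with the largest rise and fall (GINS4 was added because its groups overlap). From each neighbouring list up to 3 called genes with the smallest adjusted p in each direction are named, plus CCNE1, CCNE2, E2F1, CDKN1A and MKI67, mostly by log2 change. Of these, ORC5, E2F1 and MKI67 have library values. ORC4, POLD4, POLE4 and CDC20 are named outside this rule. A stromal, epithelial, mesenchymal, endothelial, immune and mesothelial marker list was read for the check of the line.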

Additional observations from a re-analysis of the deposited data

How the results depend on the processing

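Of 912 pairs of a member and an alternative, 771 kept the side of the threshold and, where either fit made a call, the direction. These 771 include 28 pairs, called in neither fit, whose rounded log2 change switched sign or became 0.00. Of the 45 called members, 39 were called in all 6 fits that left out a library, and ORC1, ORC2, CDC7, GINS4, POLD3 and RFC1 lost the call in at least 1. DESeq2 lost ORC1, ORC2, CDC7 and GINS4. Library size scaling gave medians of -0.06 for the 57, 0.21 for licensing, -0.25 for the MCM family, 0.15 for helicase activation, 0.26 for polymerases, -0.02 for the clamp group, -0.28 for RPA, -0.42 for nucleotide supply, 0.18 for fork protection and -0.12 for chromatin copying, with 22 higher and 21 lower calls among 10565 genes called. On log2(TPM + 1), with the filter or without it, 9 members were called lower, and the same medians were 0.04, 0.45, -0.05, 0.34, 0.45, 0.12, -0.03, -0.26, 0.33 and 0.03; with a pseudocount of 0.1 there were 9 lower calls and medians of 0.04, 0.46, -0.05, 0.36, 0.46, 0.12, -0.03, -0.27, 0.35 and 0.03. These scalings shift all genes: the all-gene median was 0.075 with library size scaling and 0.245 with the pseudocount of 0.1. Among members called on counts or on TPM, the log2 changes that were below 0 on counts and not on TPM were ORC1 0.05, CDC7 0.12 (0.13 with a pseudocount of 0.1), RFC3 0.23 (0.24), FEN1 0.01, DNMT1 0.03 and CHAF1B 0.04, with GINS1 at 0.00; among members called on neither, they were GINS2 0.02, GINS3 0.20, POLA1 0.14 and SLBP 0.13 on log2(TPM + 1). Without mitochondrial genes in the TPM total, medians were -0.14 for the 57, 0.27 for licensing, -0.23 for the MCM family, 0.17 for helicase activation, 0.27 for polymerases, -0.06 for the clamp group, -0.21 for RPA, -0.45 for nucleotide supply, 0.16 for fork protection and -0.16 for chromatin copying.

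Leaving out each library in turn gave 13 to 18 higher and 27 to 29 lower calls among 9377 to 11031 genes called, and medians of -0.18 to -0.10 for the 57, -0.40 to -0.31 for the MCM family, -0.40 to -0.29 for RPA and -0.56 to -0.42 for nucleotide supply. The lowest MCM median and the highest nucleotide supply median came without frankincense replicate 3. Members whose transcript length differed numbered 4 to 6 in those fits, with 6 without frankincense replicate 3 or vehicle replicate 3 and 5 without frankincense replicate 2 or vehicle replicate 1, against 3 with all libraries; a threshold of 10%, chosen after seeing the data, gave 2. Fewer libraries make separate groups easier to reach.

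With the replicate number as a replicate block, 17 members were called higher, PRIM1 being added, and 29 lower, and 10591 genes were called in all. The deviations of same-numbered libraries correlated at 0.05, 0.101 and 0.035, so the numbers were not taken as pairs, although each library correlated best with its own number. No member was near the floor, as the lowest count was 319. Depth may still limit which small changes pass: PRIM1 and POLE2, among the members with the lowest counts, had the largest SEs (0.087 and 0.080). The small changes depend on the scale chosen, and the 3 libraries per group limit what spread could be seen.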
